A study of Arabidopsis thaliana with 30 samples.

Results

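The mock libraries follow what happened in detached Arabidopsis leaves that were left in buffer without any added hormone. They are 15 of the 30 libraries of the series, chosen by their mock label, and cover 6, 7, 8, 9 and 10 h of incubation with 3 replicates each. The mock columns of replicate 3 at 6 h and at 7 h were the same at every locus, so both were left out and the hourly drift was measured in 13 libraries, with replicates 1 and 2 at all 5 hours and replicate 3 at 8, 9 and 10 h. The plants were wild-type Columbia-0, grown on soil for 10 days at 21 °C under continuous light of 75 µE per m2 per s. Leaves 1 and 2 were cut off whole, surface-sterilised, and shaken in buffer with 5.0% glucose, 0.22% Murashige and Skoog salts and 0.2% DMSO. The other 15 libraries came from stimulus leaves, whose buffer also held 20 µM bikinin, an inhibitor of GSK3-like kinases, the auxin 2,4-D at 2.5 µg/mL and the cytokinin kinetin at 0.5 µg/mL. Each sample pooled leaves of several plants, and no uncut leaf or earlier mock hour was analysed here, so the drift describes the later part of an incubation and not the response to cutting itself.

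The plant circadian clock is a set of transcription factors that repress each other in turn. The morning factors LHY and CCA1 repress evening genes such as TOC1 and GI, the PRR proteins repress LHY and CCA1, and the evening complex of ELF3, ELF4 and LUX represses PIF4 and PRR9. Such rhythms run on in constant light. Clock, light, wound and sugar signals reach many of the same leaf genes, among them those for light-harvesting proteins, for starch enzymes and for flavonoid pigments.

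Promoters of 4 of the clock genes that fell most in mock are shown because they carry the short motifs through which clock and light factors are known to act. Each is the 300 bases before the annotated gene start in the RefSeq TAIR10.1 assembly, 5′ to 3′ on the gene's own strand, with capitals marking the evening element AAAATATCT, the CCA1-binding site AAAAATCT or the G-box CACGTG, each searched on both strands. The windows lie at chr1:25508339-25508638 (plus strand) for FKF1, chr5:8358547-8358846 (minus strand) for PRR5, chr2:19232307-19232606 (plus strand) for PRR9 and chr5:642031-642330 (minus strand) for PRR7.
FKF1: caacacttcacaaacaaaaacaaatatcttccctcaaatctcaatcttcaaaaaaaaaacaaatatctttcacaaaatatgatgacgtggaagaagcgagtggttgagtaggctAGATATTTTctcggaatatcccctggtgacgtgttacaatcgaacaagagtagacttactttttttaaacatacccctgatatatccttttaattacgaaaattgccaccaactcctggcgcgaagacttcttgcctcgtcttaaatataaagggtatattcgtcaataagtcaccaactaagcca
PRR5: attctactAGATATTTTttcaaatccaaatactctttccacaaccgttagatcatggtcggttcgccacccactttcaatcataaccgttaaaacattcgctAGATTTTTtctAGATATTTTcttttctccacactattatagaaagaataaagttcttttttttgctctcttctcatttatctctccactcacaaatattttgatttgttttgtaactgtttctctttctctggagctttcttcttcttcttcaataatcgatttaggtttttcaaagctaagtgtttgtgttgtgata
PRR9: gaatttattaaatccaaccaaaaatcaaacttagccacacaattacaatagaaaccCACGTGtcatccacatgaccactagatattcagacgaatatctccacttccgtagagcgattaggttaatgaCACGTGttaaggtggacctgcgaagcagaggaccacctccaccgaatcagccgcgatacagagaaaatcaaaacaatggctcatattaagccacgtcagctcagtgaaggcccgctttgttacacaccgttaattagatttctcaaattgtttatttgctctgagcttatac
PRR7: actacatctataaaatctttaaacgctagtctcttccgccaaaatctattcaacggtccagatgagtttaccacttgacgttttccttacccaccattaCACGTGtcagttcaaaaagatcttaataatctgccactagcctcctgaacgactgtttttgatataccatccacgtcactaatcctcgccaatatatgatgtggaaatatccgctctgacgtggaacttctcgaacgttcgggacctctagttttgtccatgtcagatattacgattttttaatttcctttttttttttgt
FKF1 held 1 evening element, read on the opposite strand, whose first base lay 186 bases before the gene start. PRR5 held 2 evening elements, at 292 and 187 bases, with a CCA1-binding site at 198 bases, all read on the opposite strand and none overlapping another. PRR9 held 2 G-boxes, at 244 and 172 bases, and PRR7 held 1 at 201 bases. None of these letters was found in the same windows of PIF4 and GI.

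The evening element was present in 2.97% of the 18988 protein-coding promoters of tested genes, in 5.28% of those of falling genes (120 of 2274) and in 2.54% of those of rising genes (54 of 2126). In the clock core list 5 of 25 promoters held it and 7 of 25 held a G-box. G-boxes stood in 8.4% of falling, 8.61% of rising and 8.15% of all tested promoters. The W-box TTGACT, the site of WRKY factors, was found in 27.2% of rising, 17.9% of falling and 21.3% of all tested promoters. These are matches of letters only, and binding was not measured.

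Many genes changed with the hour. Of 20647 genes tested, 2170 rose (10.5%) and 2371 fell (11.5%) per hour at an adjusted p under 0.05 in edgeR's quasi-likelihood test, which fitted a straight line in log2 CPM (a locus's count as a share of its library, scaled by TMM) with an offset for replicate 3. The median slope over all tested genes was -0.00191 log2 per hour, and 513 rising and 446 falling genes moved by more than 2-fold over the 4 h. Alone, replicate 3 moved the same way as the fit in 1901 of the 2170 rising and in 1928 of the 2371 falling genes, where 49.6% of all tested genes had a positive slope in that replicate. Replicate 3 is part of the fit, so this share describes the calls and does not test them. Leaving out 1 library at a time gave 1493 to 2189 rising and 1633 to 2311 falling genes. The numbers were 1493 and 1766 without replicate 1 at 6 h, and 1647 and 1633 without replicate 1 at 10 h. No gene departed from a straight line past the threshold in edgeR, although 1849 did so at an unadjusted p under 0.05 and DESeq2 called 66 peaking and 28 dipping genes. A test for any difference between the 5 hours called 2927 genes (14.2%), 1941 without replicate 1 at 6 h and 1814 without replicate 1 at 10 h.

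The libraries held 14981271 to 21690622 counts (mean 19173600 ± 1635000, SD, n = 13), of which mitochondrial loci took 31.3% to 37.2%. Replicate 3 stood apart from the others on the first principal component, which held 50.8% of the variance. Plastid loci took 0.608 ± 0.0458% of its counts (SD, n = 3), against 2.58 ± 0.361% in replicates 1 and 2 (n = 10). The second component, with 15.6% of the variance, held the libraries of 6 and 7 h at its positive end and those of 9 and 10 h at its negative end. Of the defining markers, those of guard cells summed to between 47.3 and 67.6 CPM with 0 of 6 rising or falling. Of 9 root markers 1 was tested, and RHD6, EXPA7 and RSL4 were at 0 in all 13 libraries. Mesophyll markers summed to between 9084 and 21599 CPM, with 3 of 6 falling. Of 7 vasculature markers 2 rose and 1 fell, at sums of 203 to 299 CPM. Of 6 epidermis markers 1 rose, with sums of 805 to 1420 CPM. The part of these markers in the drift was not tested. In whole leaves, fewer cells of a type and less RNA per cell cannot be told apart.

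**Figure D1:**
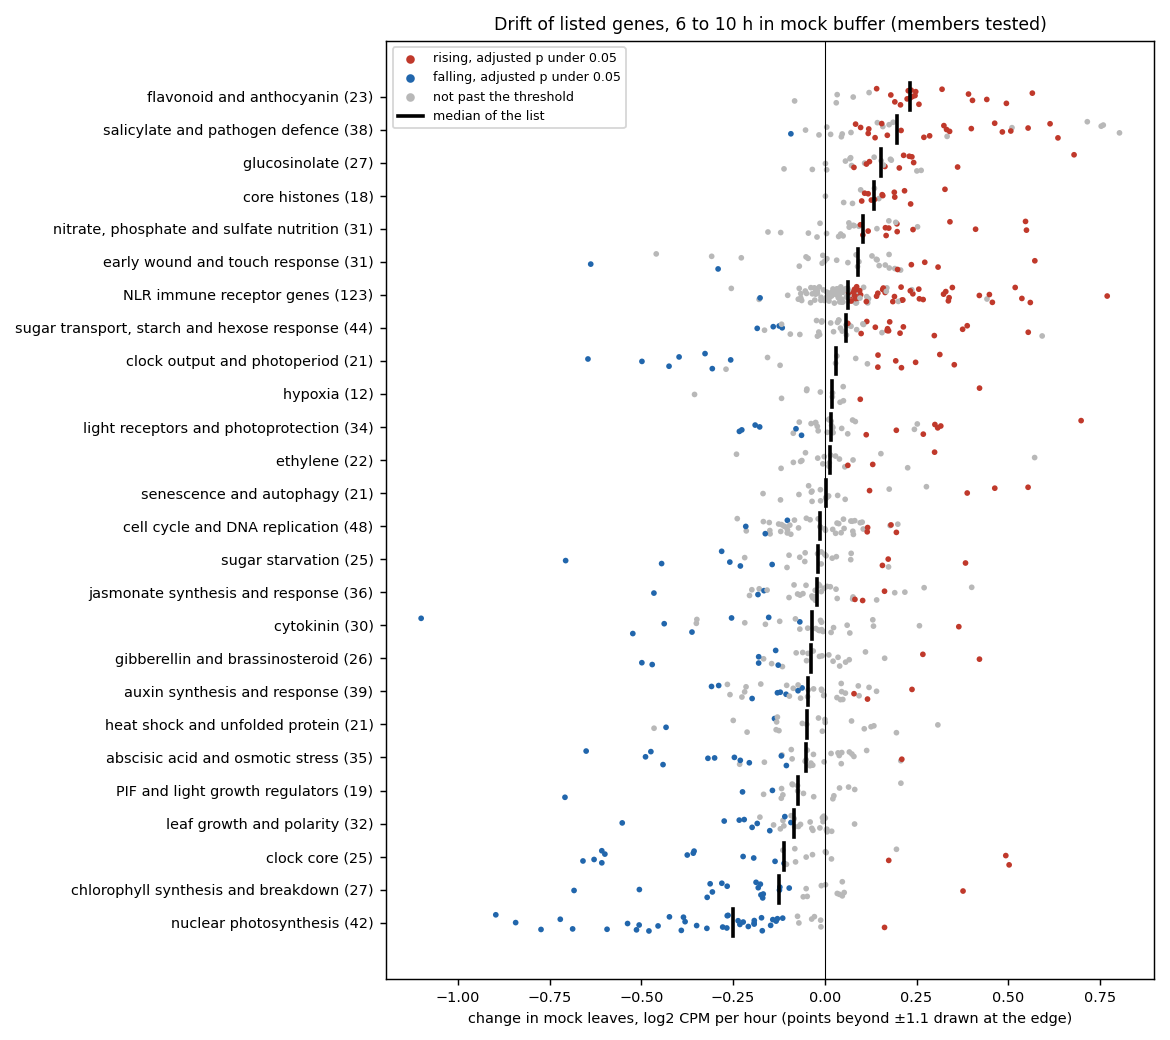
Drift of each listed gene in mock leaves, in log2 CPM per hour over 6 to 10 h, with 1 point per tested member and the number of tested members beside each list name. Red points rose and blue points fell at an adjusted p under 0.05, grey points did not pass, and black bars are list medians. Nuclear photosynthesis lies lowest with a median of -0.25 and flavonoid genes highest with 0.23.

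Among core clock genes LHY, RVE8 and RVE4 rose, while GI, FKF1, PRR5 and 9 others fell. LHY, a morning repressor, had 9.89, 11.0, 18.9, 32.9 and 38.3 CPM at 6 to 10 h in replicate 1, 18, 5.47, 14.3, 23.7 and 49.4 CPM in replicate 2, and 44.8, 74.0 and 90.9 CPM at 8 to 10 h in replicate 3. Every replicate ended higher than it began, and replicate 3 was the highest at each hour it covered. LHY rose by 0.50 ± 0.08 log2 per hour (SE, edgeR adjusted p = 0.00046), or 4.02-fold over the 4 h. RVE8, an activator of evening genes, had 5.00, 6.57, 9.75, 19.0 and 22.6 CPM in replicate 1, 8.24, 4.04, 9.55, 11.8 and 25.4 CPM in replicate 2, and 25.6, 31.2 and 32.3 CPM in replicate 3. It rose by 0.49 ± 0.07 per hour (adjusted p = 0.00013). Its relative RVE4 rose by 0.17 ± 0.04 (adjusted p = 0.0022). CCA1, the partner of LHY, lay between 3.37 and 10.3 CPM in replicates 1 and 2 and reached 50.1 CPM at 10 h in replicate 3, and its slope of 0.20 ± 0.08 did not pass (adjusted p = 0.097).

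Of the 25 core clock genes, 3 rose and 12 fell, where 10.5% and 11.5% of all tested genes did, and their median slope was -0.11 log2 per hour. GI, which stabilises the F-box protein ZTL, had 49.1, 59.8, 22, 12.4 and 6.02 CPM at 6 to 10 h in replicate 1, 36.0, 31.9, 20.3, 12.3 and 8.33 CPM in replicate 2, and 8.18, 9.38 and 7.26 CPM at 8 to 10 h in replicate 3. In replicates 1 and 2 all values at 9 and 10 h lay under those at 6 and 7 h, while replicate 3 was already low at 8 h. GI fell by 0.66 ± 0.08 log2 per hour (adjusted p = 5.7e-05). FKF1, a blue-light F-box protein, had 32.5, 37.4, 16.8, 8.62 and 4.70 CPM in replicate 1, 31.0, 24.8, 15.9, 10.9 and 7.77 CPM in replicate 2, and 9.92, 10.2 and 6.67 CPM in replicate 3. Its fall of 0.61 ± 0.06 per hour (adjusted p = 1.4e-05) was near that of GI. PRR5 had 26.6, 26.9, 7.70, 5.27 and 4.86 CPM in replicate 1, 20.9, 13.4, 7.52, 6.00 and 4.91 CPM in replicate 2, and 8.63, 9.96 and 7.67 CPM in replicate 3. In replicate 1 the drop came between 7 and 8 h. PRR5, whose promoter carried 2 evening elements, fell by 0.61 ± 0.08 (adjusted p = 7.8e-05).

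PRR7 and PRR9, the earlier-acting members of the PRR family, fell in the fit but not in replicate 3 alone. PRR7 had 38.4, 32.7, 12.6, 8.75 and 4.65 CPM in replicate 1, 31.4, 22.1, 13.6, 9.20 and 6.95 CPM in replicate 2, and 2.52, 8.80 and 7.20 CPM at 8 to 10 h in replicate 3. It fell by 0.60 ± 0.10 log2 per hour in the fit (adjusted p = 0.00053), and its slope in replicate 3 minus that in replicates 1 and 2 was 1.34 ± 0.26, which did not pass over all genes (adjusted p = 0.15). PRR9 was low, at 0.276 to 2.68 CPM in replicates 1 and 2 and 0.0560 to 1.60 CPM in replicate 3. Its fall of 0.63 ± 0.19 (adjusted p = 0.024) was lost without replicate 1 at 6 h, replicate 1 at 10 h or replicate 2 at 10 h, with an adjusted p of up to 0.134. LNK1, a coactivator of RVE8, fell by 0.36 ± 0.09 (adjusted p = 0.0078), although replicate 3 had 6.05, 13.2 and 15.3 CPM. LNK1 overlaps a gene on the other strand by 245 bp, and no source used here says whether counting used strand. Of the 12 falling clock genes, 9 also fell in replicate 3 alone, all but PRR7, PRR9 and LNK1. GI, FKF1 and PRR5 count among the 9, though in replicate 3 each was higher at 9 h than at 8 h. The median slope of the core clock list was -0.20 log2 per hour in replicate 1, -0.10 in replicate 2 and -0.02 in replicate 3.

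TOC1 and the evening complex also fell. TOC1, an evening repressor of LHY, had 99.1, 98.8, 84.6, 81.5 and 75.2 CPM in replicate 1, 101, 102, 92.8, 76.4 and 67.7 CPM in replicate 2, and 63.4, 54.4 and 49.9 CPM in replicate 3. Values declined in every replicate after 7 h, by 0.14 ± 0.02 log2 per hour (adjusted p = 0.00025). The evening complex fell together, with ELF4 at -0.36 ± 0.05 (adjusted p = 7.7e-05), LUX at -0.19 ± 0.03 (adjusted p = 0.0009) and ELF3 at -0.11 ± 0.03 (adjusted p = 0.0048). PRR3, which stabilises TOC1, fell by 0.37 ± 0.03 (adjusted p = 4.9e-06). CHE, a repressor of CCA1, fell by 0.22 ± 0.06 (adjusted p = 0.013), a call lost without replicate 1 at 6 h (adjusted p = 0.0809). The other 10 core genes did not pass, among them ZTL with a slope of 0.02 ± 0.03 (adjusted p = 0.67) and a range of 28.1 to 40.5 CPM.

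**Figure D2:**
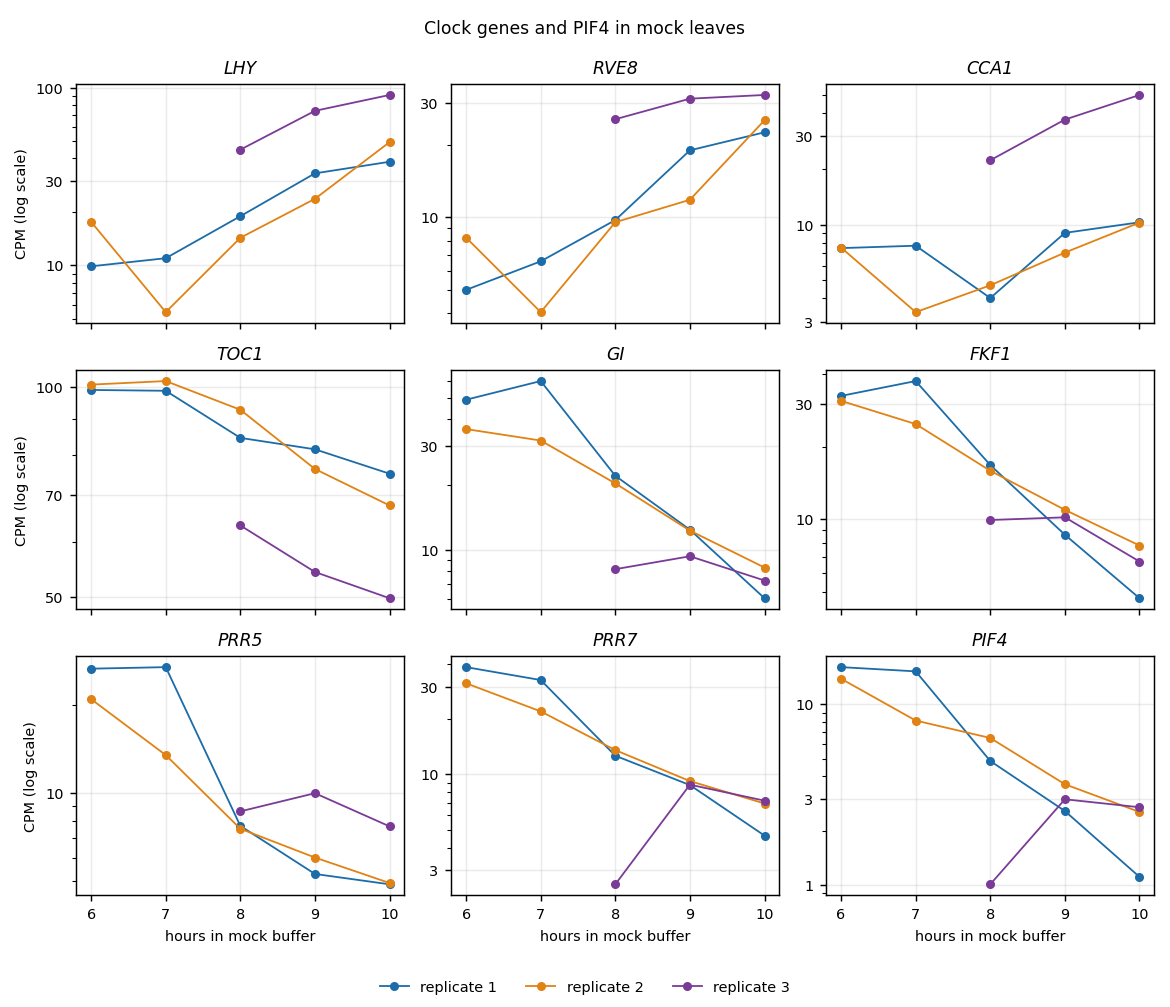
CPM (log scale) of 8 core clock genes and PIF4 against hours in mock buffer, with 1 line per replicate and replicate 3 shown at 8 to 10 h. LHY and RVE8 climb in all replicates, GI and FKF1 end lower than they began, and replicate 3 lies above the others for LHY, RVE8 and CCA1 and below them for TOC1.

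Genes that the clock is known to control split evenly: of 21 tested, 7 rose and 7 fell (33.3% each). Of all tested genes 10.5% rose and 11.5% fell. GRP7, an RNA-binding protein with an evening peak, had 333, 371, 218, 109 and 81.7 CPM in replicate 1, 302, 293, 237, 149 and 86.6 CPM in replicate 2, and 95.8, 81.5 and 68.5 CPM in replicate 3. All replicates fell to under 90 CPM at 10 h, a slope of -0.50 ± 0.06 (adjusted p = 2.7e-05). CAT3, a catalase gene, had 310, 293, 135, 79.2 and 36.4 CPM in replicate 1, 192, 178, 131, 49.0 and 51.1 CPM in replicate 2, and 222, 260 and 190 CPM in replicate 3. It fell by 0.65 ± 0.08 (adjusted p = 6.8e-05) and was highest in replicate 3 at each shared hour. COR28, a clock repressor that responds to cold, fell by 0.42 ± 0.05 (adjusted p = 4.2e-05). Among the risers, COL1, a relative of the flowering regulator CONSTANS, gained 0.35 ± 0.04 (adjusted p = 2.3e-05) and RVE1, which links the clock to auxin, 0.31 ± 0.06 (adjusted p = 0.0014). BBX19 rose by 0.25 ± 0.07 (adjusted p = 0.014), lost without replicate 2 at 10 h (adjusted p = 0.0572). Without that library 4 of the 21 rose.

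PIF4, a bHLH factor that drives growth in warmth and shade, showed the steepest fall of the light growth list. It had 16.0, 15.2, 4.85, 2.57 and 1.11 CPM in replicate 1, 13.8, 8.13, 6.51, 3.61 and 2.54 CPM in replicate 2, and 1.01, 2.98 and 2.69 CPM in replicate 3. Values dropped hour by hour in replicates 1 and 2, while replicate 3 was higher at 9 and 10 h than at 8 h. The fitted slope was -0.71 ± 0.11 log2 per hour (adjusted p = 0.00033), and the slope in replicate 3 minus that in replicates 1 and 2 was 1.41 ± 0.34 (adjusted p = 0.43). PIF5, its closest relative, had a slope of -0.07 ± 0.07 (adjusted p = 0.49), with 18.9 to 34.9 CPM in replicates 1 and 2 and 14.5, 33.1 and 37.6 CPM in replicate 3. Of the 19 genes tested in this list 3 fell (15.8%) and 0 rose, where 11.5% and 10.5% of all tested genes did. The other fallers were HAT3, a homeodomain factor of shade avoidance, at -0.22 ± 0.05 (adjusted p = 0.0059), and BIM1, a brassinosteroid factor, at -0.14 ± 0.03 (adjusted p = 0.0018). In replicate 3 alone 1 of the 3 fell and 2 rose, PIF4 among the 2.

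Nuclear photosynthesis genes, those of light harvesting among them, had the lowest median slope of all lists. LHB1B1, a light-harvesting protein of photosystem II, had 134, 155, 26.5, 15.3 and 6.92 CPM in replicate 1, 123, 78.9, 41.9, 12.2 and 14.8 CPM in replicate 2, and 54.1, 63.3 and 96.3 CPM in replicate 3. From 8 h on replicate 3 lay above both other replicates. LHB1B1 fell by 0.90 ± 0.15 log2 per hour (adjusted p = 0.00053). LHCB1.2 had 982, 1223, 297, 150 and 98.7 CPM in replicate 1, 873, 649, 400, 118 and 146 CPM in replicate 2, and 399, 600 and 629 CPM in replicate 3, and fell by 0.77 ± 0.12 (adjusted p = 0.00044). LHCB2.2 fell by 0.84 ± 0.16 (adjusted p = 0.0014). These families have near-identical copies, so the split of reads among members is uncertain. Of 42 nuclear photosynthesis genes 35 fell (83.3%) and 1 rose (2.38%), where 11.5% and 10.5% of all tested genes did. The list's median slope was -0.25. The riser was LHCB4.3, a minor antenna protein, at 0.16 ± 0.04 (adjusted p = 0.0089).

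The replicates differed in the sign of this median, a difference not tested for the list. The list's median slope was 0.05 log2 per hour in replicate 3, against -0.30 in replicate 1 and -0.24 in replicate 2. Of the 35 falling genes 9 fell and 26 rose in replicate 3 alone. The difference in slope for LHB1B1, 1.46 ± 0.32 in replicate 3 minus replicates 1 and 2, did not pass over all genes (adjusted p = 0.23). With replicates 1 and 2 only, 35 fell again, but without any term for replicate 0 did. For these genes the fall rests on replicates 1 and 2.

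Genes of chlorophyll synthesis and breakdown also fell, most of the called ones in replicate 3 as well. PORB, the light-dependent enzyme that makes chlorophyllide, had 291, 282, 117, 77.1 and 67.3 CPM in replicate 1, 194, 272, 138, 71.3 and 75.8 CPM in replicate 2, and 441, 472 and 413 CPM in replicate 3. It dropped after 7 h in replicates 1 and 2 and stayed high in replicate 3. PORB fell by 0.51 ± 0.07 log2 per hour (adjusted p = 0.00015). NYC1, a reductase of chlorophyll breakdown, fell by 0.32 ± 0.07 (adjusted p = 0.0044). In all, 16 of 27 chlorophyll genes fell (59.3%) and 1 rose (3.7%), where 11.5% and 10.5% of all tested genes did. The median was -0.12, and 11 fell without replicate 1 at 10 h. Of the 16, 10 also fell in replicate 3 alone and 6 rose. The list median was -0.03 in replicate 3, against -0.15 in replicate 1 and -0.13 in replicate 2. Without a replicate term 0 of the 27 passed. The single riser was NYE2, a STAY-GREEN family member, at 0.38 ± 0.10 (adjusted p = 0.012) and no more than 2.19 CPM in any library.

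ELIP1 rose among genes of light receptors and photoprotection that moved in both directions. ELIP1, an early light-inducible protein that binds pigments under light stress, had 111, 163, 405, 688 and 600 CPM in replicate 1, 141, 108, 367, 581 and 622 CPM in replicate 2, and 35.8, 36.4 and 111 CPM in replicate 3. All replicates ended above their first value, and replicate 3 lay far lower throughout. ELIP1 rose by 0.70 ± 0.08 log2 per hour (adjusted p = 3.4e-05), or 6.93-fold over the 4 h. Of 34 genes for light receptors and photoprotection 7 rose and 6 fell, a median of 0.02. BBX25, a regulator of seedling light responses, rose by 0.32 ± 0.06 (adjusted p = 0.001). NPQ1, the violaxanthin de-epoxidase of the xanthophyll cycle, and BBX22 each fell by 0.23 (± 0.03, adjusted p = 4.2e-05, and ± 0.04, adjusted p = 0.0018). NPQ1 overlaps a gene on the other strand by 464 bp.

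Flavonoid genes rose as a group. F3H, the flavanone hydroxylase of flavonol and anthocyanin synthesis, had 145, 225, 334, 474 and 487 CPM in replicate 1, 161, 188, 325, 486 and 512 CPM in replicate 2, and 203, 231 and 268 CPM in replicate 3. The rise was seen in every replicate. F3H gained 0.44 ± 0.04 log2 per hour (adjusted p = 6.3e-06). MYB12, an activator of flavonol synthesis, had 4.74, 8.78, 19.9, 19.8 and 25.1 CPM in replicate 1, 8.19, 4.70, 13.7, 20.3 and 28.7 CPM in replicate 2, and 1.63, 2.4 and 3.98 CPM in replicate 3. It rose by 0.57 ± 0.07 (adjusted p = 4.3e-05), the most of the list. CPC, a small MYB that represses anthocyanin genes, rose by 0.49 ± 0.08 (adjusted p = 0.00052). Of 23 members 18 rose (78.3%) and 0 fell, where 10.5% and 11.5% of all tested genes did. The median was 0.23, and 16 of the 18 also rose in replicate 3 alone. Leaving out 1 library at a time left 17 to 19 rising, and 11 rose without a replicate term.

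**Figure D3:**
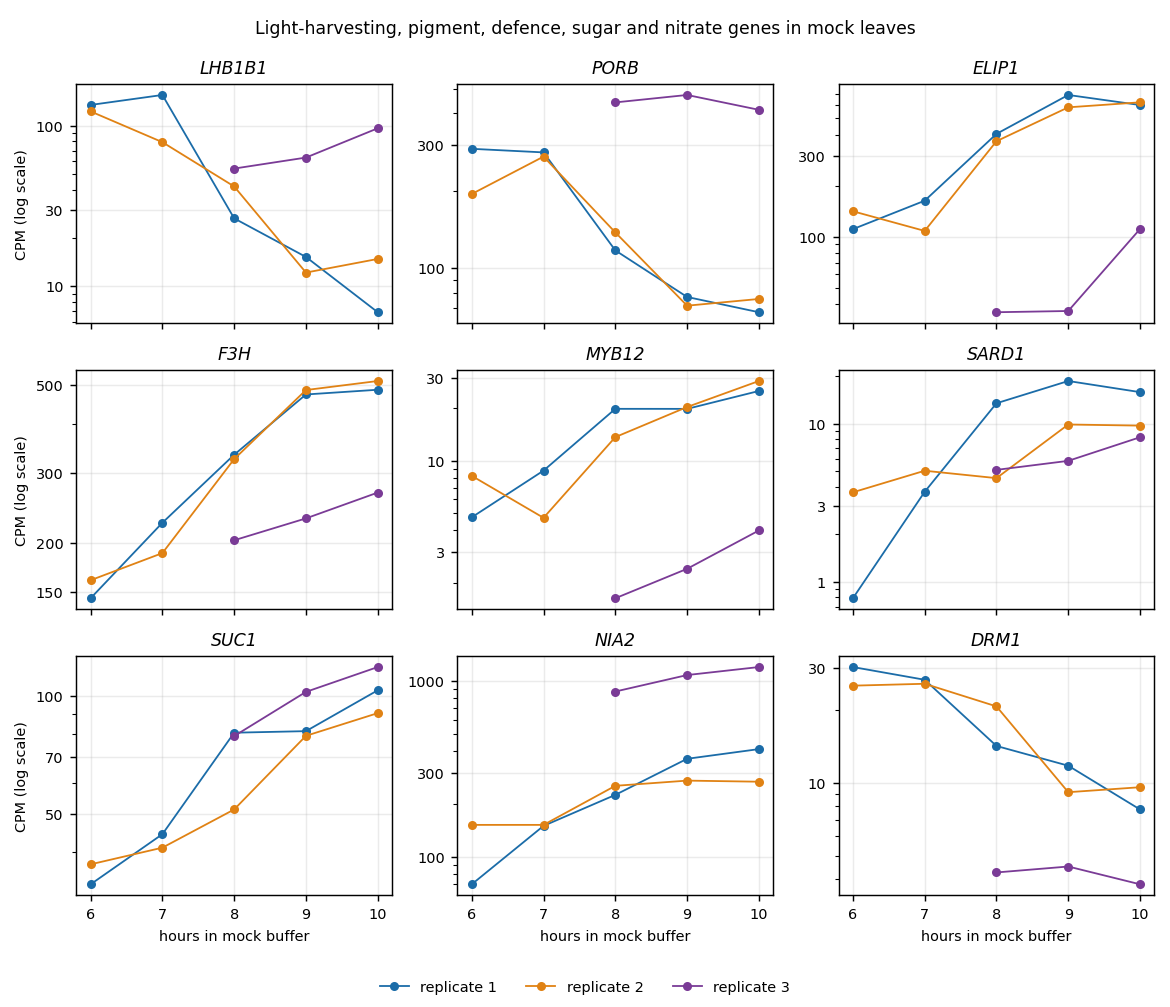
CPM (log scale) against hours in mock buffer for 9 genes of light harvesting, pigment, defence, sugar and nitrate metabolism, with 1 line per replicate and replicate 3 shown at 8 to 10 h. F3H, SUC1 and NIA2 climb in all replicates, LHB1B1 and PORB drop in replicates 1 and 2 while replicate 3 ends at 96.3 and 413 CPM, and DRM1 is lowest in replicate 3.

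Most genes of jasmonate, the main wound hormone of leaves, had no slope past the threshold between 6 and 10 h. LOX2, the lipoxygenase that starts jasmonate synthesis, had 3411, 3936, 4015, 3869 and 3347 CPM in replicate 1, 2971, 4204, 3422, 4574 and 3353 CPM in replicate 2, and 3408, 3216 and 3274 CPM in replicate 3. Its slope was 0.01 ± 0.04 log2 per hour (adjusted p = 0.82). VSP2, a storage protein induced by jasmonate, had a slope of -0.03 ± 0.11 (adjusted p = 0.88) over a wide range of 24.0 to 137 CPM. The master regulator MYC2 had -0.07 ± 0.07 (adjusted p = 0.52) and the repressor JAZ1 0.01 ± 0.05 (adjusted p = 0.96). Of 36 genes 3 rose and 3 fell (8.33% each), near the 10.5% and 11.5% of all tested genes. The calls kept in each fit with 1 library left out were LOX6, which rose by 0.16 ± 0.03 (adjusted p = 0.0018), and JAZ3, which fell by 0.18 ± 0.03 (adjusted p = 0.00047). ACX1, a β-oxidation enzyme, AOC2 and AOC4, both allene oxide cyclases, and CYP94B3, which inactivates the hormone, passed with an adjusted p of 0.0094 to 0.048 and each lost the call without at least 1 library, with an adjusted p of up to 0.209.

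Early wound and touch genes were called about as often as all genes. TCH3, a calmodulin-like protein induced by touch, had 11.6, 24.2, 45.0, 91.6 and 82.7 CPM in replicate 1, 14.4, 45.3, 51.2, 66.8 and 48.3 CPM in replicate 2, and 18.8, 25.4 and 42.7 CPM in replicate 3. It rose by 0.57 ± 0.09 log2 per hour (adjusted p = 0.00038). WRKY60 rose by 0.27 ± 0.04 (adjusted p = 0.00041), and ERF115, a regulator of regeneration after wounding, fell by 0.29 ± 0.07 (adjusted p = 0.0057). CBF3, a cold and touch factor, fell by 0.64 ± 0.13 (adjusted p = 0.002), but was low, with 547 counts summed over all 30 libraries. Of the 2 fallers, 1 fell and 1 rose in replicate 3 alone. Of 31 genes 5 rose (16.1%) and 2 fell (6.45%), where 10.5% and 11.5% of all tested genes did. The median slope was 0.22 in replicate 1, -0.11 in replicate 2 and 0.05 in replicate 3. The count of risers was 3 without replicate 1 or 2 at 6 h, replicate 1 at 9 h, or replicate 1 or 3 at 10 h, and 11 without replicate 2 at 10 h.

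Several sugar transport and starch genes rose. SUC1, a sucrose and proton symporter, had 33.1, 44.5, 80.8, 81.5 and 104 CPM in replicate 1, 37.2, 41.1, 51.4, 79.3 and 90.6 CPM in replicate 2, and 79.2, 103 and 119 CPM in replicate 3. Each series ended at its highest value. SUC1 rose by 0.38 ± 0.04 log2 per hour (adjusted p = 9e-06). ERD6, a sugar transporter, had 2.89, 6.57, 9.36, 19.8 and 19.8 CPM in replicate 1, 4.67, 5.51, 5.35, 10.9 and 14.2 CPM in replicate 2, and 10.9, 15.3 and 19.6 CPM in replicate 3. Its slope was 0.55 ± 0.07 (adjusted p = 5.2e-05). GPT2, a glucose 6-phosphate translocator that responds to sugar, had 418, 443, 649, 673 and 761 CPM in replicate 1, 547, 389, 535, 753 and 780 CPM in replicate 2, and 501, 578 and 625 CPM in replicate 3. GPT2 and GBSS1, the starch synthase that makes amylose, rose at a similar pace, by 0.20 ± 0.04 (adjusted p = 0.00088) and 0.21 ± 0.04 (adjusted p = 0.00062).

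Enzymes of starch breakdown did not move as one. SEX1, which phosphorylates starch at the start of its breakdown, had 1116, 985, 822, 687 and 623 CPM in replicate 1, 1052, 901, 788, 751 and 609 CPM in replicate 2, and 672, 729 and 671 CPM in replicate 3. It fell without a break in replicates 1 and 2, a slope of -0.18 ± 0.03 (adjusted p = 0.00014). DPE1 and DPE2, which handle maltotriose and maltose, fell by 0.14 ± 0.03 (adjusted p = 0.0072) and 0.12 ± 0.03 (adjusted p = 0.0068). The β-amylase BAM3 and the glucan phosphatase SEX4 rose by 0.14 ± 0.03 (adjusted p = 0.0066) and 0.17 ± 0.03 (adjusted p = 0.00068). The monosaccharide transporter STP1 had a slope of -0.01 ± 0.04 (adjusted p = 0.84). Of the 44 genes of sugar transport, starch and hexose response 14 rose (31.8%) and 4 fell (9.09%), a median of 0.06. Of all tested genes 10.5% rose and 11.5% fell. Of the 14, 13 also rose in replicate 3 alone, while of the 4 that fell, 2 fell and 2 rose there. Without a replicate term 5 rose and 3 fell.

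Among sugar starvation genes DRM1 and TPS11 fell and EXO and bZIP11 rose. DRM1, a dormancy-associated gene that sugar represses, had 30.2, 26.7, 14.2, 11.8 and 7.76 CPM in replicate 1, 25.2, 25.7, 20.7, 9.15 and 9.59 CPM in replicate 2, and 4.26, 4.51 and 3.81 CPM in replicate 3. Replicate 3 was lowest at each hour and nearly flat. DRM1 fell by 0.44 ± 0.05 log2 per hour (adjusted p = 3.1e-05). TPS11, a trehalose phosphate synthase relative, had 6.52, 6.57, 4.56, 3.62 and 3.80 CPM in replicate 1, 7.62, 6.46, 4.85, 3.15 and 4.08 CPM in replicate 2, and 5.55, 3.78 and 4.21 CPM in replicate 3, and fell by 0.26 ± 0.04 (adjusted p = 0.0006). EXO, a growth gene that carbon status affects, and bZIP11, a sugar-controlled factor, rose by 0.38 ± 0.07 (adjusted p = 0.00091) and 0.17 ± 0.04 (adjusted p = 0.0062). KIN10, a catalytic subunit of the energy-sensing kinase SnRK1, had a slope of -0.01 ± 0.02 (adjusted p = 0.79), and its relative KIN11 did not pass either (adjusted p = 0.99). Of 25 genes 6 fell (24%) and 3 rose (12%), where 11.5% and 10.5% of all tested genes did, and 2 fell without replicate 1 at 10 h. ASN1, a classic dark and starvation gene, lay between 0.0462 and 1.52 CPM, and its fall of 0.71 ± 0.22 (adjusted p = 0.028) was lost without replicate 1 or replicate 2 at 10 h, with an adjusted p of up to 0.0789.

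Many defence genes rose. WAK1, a wall-associated receptor kinase, had 6.47, 40.8, 147, 159 and 231 CPM in replicate 1, 38.3, 34.2, 49.9, 161 and 145 CPM in replicate 2, and 45.5, 78.2 and 115 CPM in replicate 3. It rose by 0.81 ± 0.13 log2 per hour (adjusted p = 0.00034). SARD1, an activator of salicylate synthesis, had 0.789, 3.71, 13.4, 18.6 and 15.8 CPM in replicate 1, 3.68, 5.04, 4.52, 9.86 and 9.70 CPM in replicate 2, and 5.10, 5.82 and 8.20 CPM in replicate 3. ACD6, an ankyrin protein of salicylate signalling, had 10.5, 46.3, 153, 136 and 170 CPM in replicate 1, 60.6, 46.9, 65.6, 137 and 135 CPM in replicate 2, and 98.3, 126 and 162 CPM in replicate 3. For all 3 genes replicate 1 at 6 h was the lowest library. SARD1 rose by 0.61 ± 0.12 (adjusted p = 0.0021) and ACD6 by 0.55 ± 0.12 (adjusted p = 0.0027). In all, 20 of 38 salicylate and defence genes rose (52.6%) and 1 fell (2.63%), where 10.5% and 11.5% of all tested genes did. The list median was 0.20 in the fit, and 18 of the 20 also rose in replicate 3 alone. The median was 0.34 in replicate 1, 0.09 in replicate 2 and 0.18 in replicate 3. Without replicate 1 at 6 h 14 rose, and without replicate 2 at 10 h 22 did. Without a replicate term 8 rose.

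Receptor genes of the NLR class, which detect pathogen effectors inside the cell, showed the same direction at a smaller size. Of 123 tested 41 rose (33.3%) and 1 fell (0.813%), where 10.5% and 11.5% of all tested genes did. The median was 0.06 log2 per hour, and 39 of the 41 rose in replicate 3 alone. Without replicate 1 at 10 h 24 rose, and without a replicate term 7 did. AT3G04210, a TIR-NBS gene, rose by 0.77 ± 0.11 (adjusted p = 0.00019) within a range of 1.26 to 31.0 CPM. The W-box TTGACT was found in 44 of 123 NLR promoters (35.8%) and in 13 of 38 promoters of the defence list (34.2%), where 21.3% of all tested promoters held it. It was also found in 8 of 23 flavonoid promoters (34.8%) and 6 of 19 of the light growth list (31.6%). The variant TTGACC was found in 13.8% of NLR, 7.89% of defence and 13.8% of all tested promoters. Many NLR genes are close copies in clusters, so their counts are uncertain. TAT3, a tyrosine aminotransferase induced by jasmonate, had the highest slope of the named risers, 0.83 ± 0.26 (adjusted p = 0.029), with 1.2 to 32.6 CPM in replicate 2 alone, and lost the call without any of the 4 libraries of 6 and 7 h (adjusted p up to 0.0971).

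**Figure D4:**
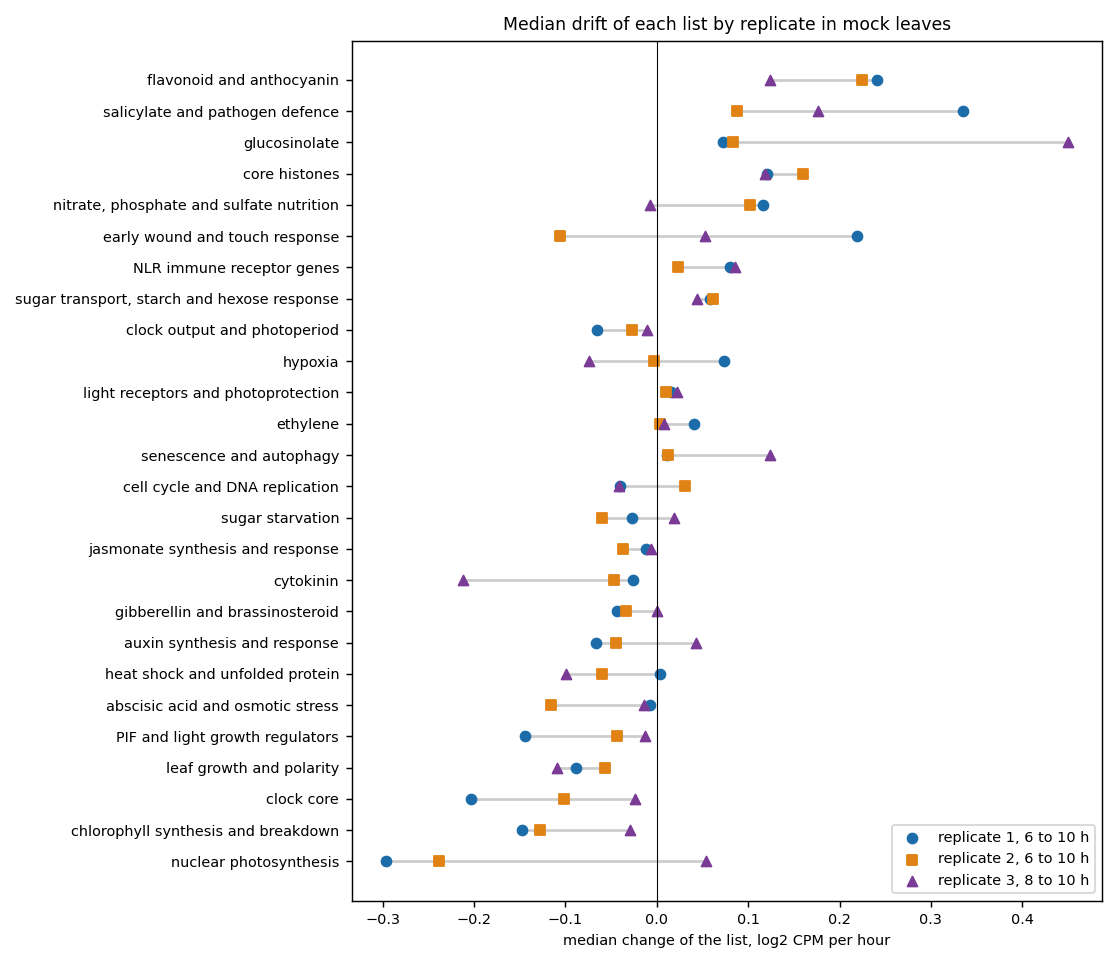
Median drift of each gene list, in log2 CPM per hour, in replicate 1 (circles) and replicate 2 (squares) over 6 to 10 h and in replicate 3 (triangles) over 8 to 10 h. Nuclear photosynthesis is at -0.30 and -0.24 in replicates 1 and 2 and at 0.05 in replicate 3, while flavonoid genes are above 0 in all.

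Nutrient, glucosinolate and histone genes counted more risers than fallers, and abscisic acid genes more fallers. Over all tested genes 10.5% rose and 11.5% fell. Nitrate, phosphate and sulfate genes counted 13 rising (41.9%) and 0 falling of 31, a median of 0.10. Of the 13, 7 rose in replicate 3 alone, where the list median was -0.00716, against 0.12 in replicate 1 and 0.10 in replicate 2. Without a replicate term 1 rose. NIA2, the main nitrate reductase, had 70.0, 150, 225, 360 and 409 CPM in replicate 1, 152, 152, 253, 271 and 267 CPM in replicate 2, and 867, 1075 and 1193 CPM in replicate 3, and rose by 0.41 ± 0.06 log2 per hour (adjusted p = 0.00027). Replicate 3 lay above every value of the other replicates. Glucosinolate genes counted 11 rising (40.7%) and 0 falling of 27. Of the 27, 5 rose without replicate 1 at 6 h, 1 without any of the 6 h libraries and 0 without a replicate term. Their median was 0.45 in replicate 3, against 0.07 in replicate 1 and 0.08 in replicate 2. Core histone genes counted 12 rising (66.7%) and 0 falling of 18, a median of 0.14, and 4 rising without the 6 h libraries. HTA6 rose by 0.33 ± 0.05 (adjusted p = 0.0004), although near-identical copies share reads. Abscisic acid and osmotic genes counted 1 rising (2.86%) and 11 falling (31.4%) of 35. RD29A and COR47, both induced by cold and drought, fell by 0.49 ± 0.05 (adjusted p = 9.7e-06) and 0.47 ± 0.07 (adjusted p = 0.00019). COR15B, a cold-regulated chloroplast protein, fell by 0.65 ± 0.07 (adjusted p = 2.6e-05), with an overlap of 468 bp with a gene on the other strand.

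Genes of leaf growth fell or did not pass. Of 32 leaf growth and polarity genes 9 fell (28.1%) and 0 rose, a median of -0.08 log2 per hour. Without replicate 1 at 6 h 5 fell. AN3, a coactivator of leaf cell proliferation, fell by 0.55 ± 0.13 (adjusted p = 0.0075) at 0.0585 to 1.55 CPM. GRF1, its partner, fell by 0.23 ± 0.04 (adjusted p = 0.00097), and YAB1, a polarity gene, by 0.27 ± 0.06 (adjusted p = 0.0029). Of 48 cell cycle genes 4 rose (8.33%) and 3 fell (6.25%), where 10.5% and 11.5% of all tested genes did. Without replicate 1 at 6 h 0 of them fell. Gibberellin synthesis genes GA3OX1 and GA20OX1 fell by 0.50 ± 0.05 (adjusted p = 1.2e-05) and 0.47 ± 0.12 (adjusted p = 0.01). Of 162 mitochondrial loci 37 fell (22.8%) and 0 rose. Of the 162, 23 fell without replicate 1 at 6 h and 55 without replicate 2 at 10 h, and 9 rose without replicate 2 at 6 h. Of 101 plastid loci 1 fell.

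One of the steepest risers was a seed gene. SESA5, a seed storage albumin, had 4.05, 6.57, 13, 23.2 and 32.5 CPM in replicate 1, 4.72, 6.84, 13.4, 40.4 and 30.8 CPM in replicate 2, and 0.841, 1.82 and 5.33 CPM in replicate 3. It rose by 0.82 ± 0.07 log2 per hour (adjusted p = 5.7e-06), in each replicate. Of 6 pollen and seed markers, SESA5 not among them, 3 were tested and 1 rose, AT2S2, a related albumin at 0.217 to 3.48 CPM. The 6 markers summed to between 0.363 and 6.40 CPM, and the seed globulin CRU3 was at 0 in all 13 libraries. Whether seed material was present in the samples was not tested.

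The slope differed between replicate 3 and replicates 1 and 2 for 6 genes past the threshold (0.0291% of those tested), 2 of them higher and 4 lower in replicate 3. DESeq2 called 35, edgeR on the 8 to 10 h libraries alone called 0, and 1009 had an unadjusted p under 0.05. The count was 0 without replicate 3 at 8 h or at 10 h, and 3 without replicate 1 at 6, 8 or 10 h. ARR7, a response regulator induced by cytokinin, had 31.1, 8.29 and 4.39 CPM at 8, 9 and 10 h in replicate 3, against 1.02 to 1.97 CPM in replicates 1 and 2 over all hours. The difference in slope was -1.32 ± 0.18 (adjusted p = 0.019). WOL, a cytokinin receptor, had 43.6, 16.4 and 10.8 CPM in replicate 3, against 3.76 to 8.79 CPM in replicates 1 and 2, a difference of -0.76 ± 0.12 (adjusted p = 0.044). Both were highest at 8 h and lower at each later hour in replicate 3. ARR4, another cytokinin response regulator, had 49.1, 18.0 and 12.5 CPM in replicate 3, against 0.581 to 2.53 CPM in replicates 1 and 2. On the scale of the fit to both treatments, replicate 3 of mock at 8 h had 32.8 CPM of ARR7, 45.9 CPM of WOL and 51.7 CPM of ARR4, against 52.7 to 64.4, 41.8 to 78.2 and 55.0 to 82.7 CPM in the stimulus leaves of 8 h. The part of these levels in the other results was not tested. Without this library 2039 genes rose and 2169 fell in mock.

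The other called genes have other roles. FMO GS-OX3, a glucosinolate oxygenase, had 2.41, 6.47 and 13.3 CPM in replicate 3, against 14.4 to 23 CPM in replicates 1 and 2, a difference in slope of 1.096 ± 0.15 (adjusted p = 0.019). CSD2, a plastid superoxide dismutase, had 34.8, 19.0 and 15.3 CPM in replicate 3, against 157 to 178 CPM in replicates 1 and 2, a difference of -0.59 ± 0.09 (adjusted p = 0.026). ACR8, an ACT domain protein, had 11.2, 5.96 and 4.51 CPM in replicate 3, against 11.2 to 13.8 CPM in replicates 1 and 2, a difference of -0.67 ± 0.10 (adjusted p = 0.044). The remaining called gene, higher in replicate 3, was under the level set for naming. Replicates 1 and 2 differed in slope for 0 of 20498 genes in edgeR, with 675 at an unadjusted p under 0.05 and 4 in DESeq2.

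Set against stimulus leaves, the mock slope was higher for 1183 genes (5.54% of 21358) and lower for 841 (3.94%). Without replicate 1 of mock at 6 h the sum of both was 1346, against 2024 with it. Of the genes that rose in mock 394 also rose in stimulus tested alone, 18% of the mock and 22.9% of the stimulus risers. Of those that fell in mock 676 also fell in stimulus, 28.5% of the mock and 41.5% of the stimulus fallers. In the opposite direction, 57 genes rose in mock and fell in stimulus, and 62 fell in mock and rose in stimulus. In stimulus tested alone 1723 genes rose and 1630 fell of 20442 tested. RVE8 rose faster in mock, by 0.38 ± 0.08 log2 per hour (adjusted p = 0.0024), at 0.49 ± 0.07 in mock and 0.12 ± 0.04 in stimulus. GI fell faster, with -0.66 ± 0.08 in mock and -0.32 ± 0.05 in stimulus, a difference of -0.33 ± 0.10 (adjusted p = 0.037). The treatments were already apart at 6 h, on the scale of the fit to both. There GI averaged 44.5 CPM in mock and 21.2 CPM in stimulus, and 7.56 and 9.77 CPM at 10 h. RVE8 averaged 6.92 CPM in mock and 13.8 CPM in stimulus at 6 h, and 28.1 and 17.2 CPM at 10 h. FKF1 (-0.28 ± 0.08, adjusted p = 0.029) and PRR5 (-0.31 ± 0.10, adjusted p = 0.041) also fell faster in mock. At 6 h they averaged 33.2 and 24.8 CPM in mock, against 20.8 and 13.7 CPM in stimulus. At 10 h the means were 6.70 and 6.10 CPM in mock, against 9.68 and 6.76 CPM. ELF3 had a lower slope in mock (-0.12 ± 0.03, adjusted p = 0.033), while its hourly means in stimulus lay between 45.3 and 52.6 CPM. GRP7 differed most of these, at -0.46 ± 0.09 (adjusted p = 0.0018), with a slope of -0.03 ± 0.06 in stimulus. Of the 25 core clock genes 1 had a higher and 4 a lower slope in mock than in stimulus.

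Flavonoid genes had median slopes of 0.23 log2 per hour in mock and 0.02 in stimulus, and the mock slope was higher for 16 of 23. F3H rose by 0.42 ± 0.06 per hour more in mock (adjusted p = 2.8e-05). In sugar transport and starch genes the medians were 0.06 in mock and -0.05 in stimulus, with 18 of 43 members higher in mock. BAM3 had slopes of 0.14 ± 0.03 in mock and -0.21 ± 0.05 in stimulus, a difference of 0.36 ± 0.06 (adjusted p = 0.00054). TPS11 had slopes of -0.26 ± 0.04 in mock and 0.23 ± 0.04 in stimulus, a difference of -0.49 ± 0.06 (adjusted p = 1.6e-05). For cell cycle genes the mock slope was lower in 20 and higher in 5 of 47, and CYCB1;1, a mitotic cyclin, differed by -0.48 ± 0.08 (adjusted p = 0.0002). LOX2, with a slope of 0.01 ± 0.04 in mock, fell by 0.24 ± 0.04 in stimulus, a difference of 0.26 ± 0.06 (adjusted p = 0.0037). Core histones had medians of 0.14 in mock and 0.15 in stimulus, and 0 of 18 members differed past the threshold. Nuclear photosynthesis had medians of -0.25 in mock and -0.22 in stimulus, with a higher mock slope for 4 of 42.

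**Figure D5:**
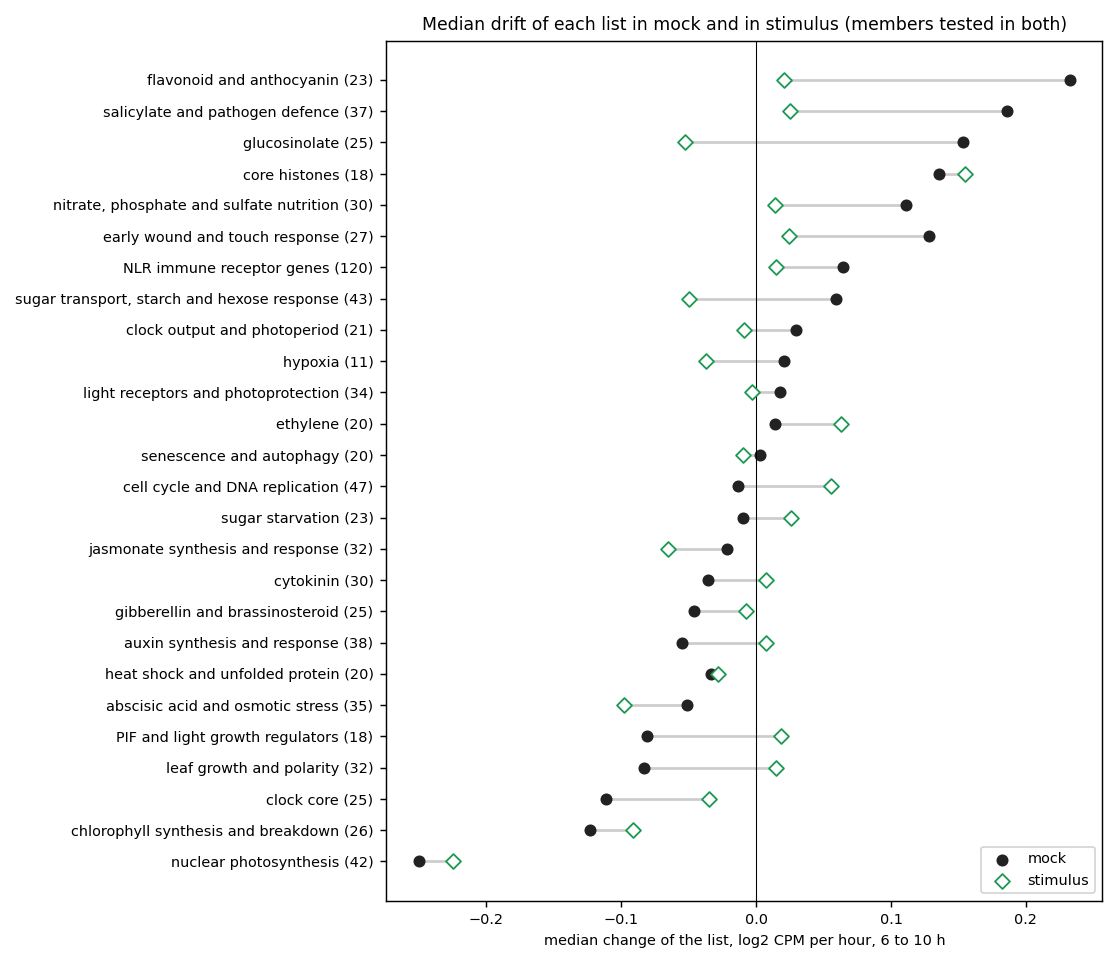
Median drift of each gene list, in log2 CPM per hour over 6 to 10 h, in mock (black circles) and in stimulus (open diamonds), over members tested in both, whose number stands beside each list. Flavonoid genes are at 0.23 in mock and 0.02 in stimulus, and core histones are close together at 0.14 and 0.15.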

How the data were processed

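RNA was measured in 30 ribosome-depleted libraries, of which 15 are mock. The authors deposited raw counts per locus, 38194 loci, per the file headers. BWA and TAIR10 are named in the submitters' processing notes. For the counting tool, the annotation and the use of strand the entry is: not given in the sources used here. Names and promoters came from TAIR10.1, which matched 37751 loci.

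Counts of 13 mock libraries were filtered with filterByExpr and scaled by TMM in edgeR 4.0.16 (R 4.3.3). A quasi-likelihood model was fitted with a term for the hour, centred at 8, and an offset for replicate 3. Further models added curvature, separate slopes by replicate, or the stimulus libraries (28 in all). SEs came from the fold change and its F statistic, and p-values were adjusted by Benjamini-Hochberg over all genes tested, with a threshold of 0.05. CPM is a count as a share of its library, with TMM scaling. The sample titles call the replicates biological. What sets them apart is not described further, so a p-value measures only how far these libraries spread.

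Only replicate 3 has a term of its own, because earlier results of these data had shown it to stand apart. The replicate numbers were also checked, by correlating deviations from the hour means between hours. For replicates 1 and 2 the correlation was over 0.1 in 2 of 10 pairs of hours (-0.211 to 0.225). For replicate 3 it was so in 3 of 3 (0.804 to 0.82).

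Members and gene lists were chosen with earlier results of these data known. Named genes are the 10 largest slopes each way among called genes averaging 1 log2 CPM or more, with 1 sign in each replicate, then up to 3 each way per list, and up to 5 each way per slope difference. In the clock core, PIF, jasmonate and both sugar lists any tested member could be named. Alternatives were DESeq2 1.42.0, its size factors, other filters, leaving out tRNA, rRNA and organelle loci, and other replicate terms. Others kept the identical columns, used fewer hours or replicates, or left out each mock library in turn. The procedure was tested on simulated data. Figures were drawn with matplotlib 3.10.9.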

Additional observations from a re-analysis of the deposited data

Results flagged for a closer look

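The slope of mock leaves differed between groups of libraries, by a test of the difference itself, for 15 named genes. In replicate 3 minus replicates 1 and 2 the differences, in log2 per hour, were 1.096 for FMO GS-OX3, -1.32 for ARR7, -0.76 for WOL, -0.67 for ACR8 and -0.59 for CSD2 (edgeR adjusted p = 0.019 to 0.044). Their values in each library are given above. All 5 calls need the 8 h library of replicate 3, without which 0 genes passed.

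In mock minus stimulus, SESA5, the seed albumin gene, differed by 0.77 ± 0.13 (adjusted p = 0.00038). At 10 h it had 24.0 ± 16.0 CPM in mock and 1.01 ± 1.13 CPM in stimulus (SD, n = 3 each). SWEET15, a sucrose exporter linked to leaf senescence, differed by 0.67 ± 0.14 (adjusted p = 0.0024), with 4.08 ± 0.141 CPM in mock and 0.530 ± 0.0956 CPM in stimulus at 10 h. MIOX1, a myo-inositol oxygenase, differed by 0.65 ± 0.10 (adjusted p = 0.00013), with 39.7 ± 11.8 CPM in mock and 6.37 ± 4.43 CPM in stimulus at 10 h. AT3G57460 differed by 0.67 and the transcribed pseudogene AT3G48650 by 0.64.

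Lower mock slopes were found for ARR4, the cytokinin response regulator, at -0.59 ± 0.09 (adjusted p = 8.8e-05), and for AT4G28140 (-0.71), AT3G17680 (-0.65), AT5G01910 (-0.59) and AT3G51280 (-0.57). ARR4 fell by 0.52 ± 0.09 in mock and had a slope of 0.06 ± 0.03 in stimulus. Its mock slope was -0.39 with replicates 1 and 2 only and also without replicate 3 at 8 h, both past the threshold, and 0.20 without a replicate term. AT5G01910 had a slope of 0.09 ± 0.07 in mock and rose by 0.69 ± 0.05 in stimulus.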

How the results depend on the processing

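The drift in mock, 2170 rising and 2371 falling genes, depended most on the term for replicate and on the identical columns. With no replicate block or offset 450 rose and 381 fell, and 23 genes differed between hours, against 2927. With replicate number as a block 2088 rose and 2254 fell, a change of calls for 5 of the 151 named genes (AOC4, AOC2, DIN4, FLS2 and EIN4), and the mock minus stimulus count was 2038, against 2024. The numbers were not shown to pair replicates 1 and 2. With the copy kept as 6 h, 1299 rose, 1117 fell, 519 differed between hours and 1 peaked. Kept as 7 h, 647 differed between hours. With both copies kept 1233 fell and 216 differed. Without the 6 h libraries 1273 rose and 1766 differed, and without the 10 h libraries 1378 fell and 1636 differed. With no filter 4737 differed, 39 peaked and 4 dipped, against 0. DESeq2 gave 66 peaking and 28 dipping genes, 35 for replicate 3 against replicates 1 and 2, where edgeR gave 6 and the 8 to 10 h libraries alone 0, and 4 for replicate 1 against replicate 2.

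With single mock libraries left out the counts ran from 1493 to 2189 rising, 1633 to 2311 falling, 0 to 1 peaking and 1814 to 2981 between hours. They ran from 0 to 7 and 0 to 1 for the replicate differences, and from 1346 to 2148 for mock minus stimulus. No stimulus library was left out in these fits. With replicates 1 and 2 only, the mock minus stimulus count was 1370. Of 151 called named genes 108 kept the call in each fit with 1 mock library left out. Slopes turned round without a replicate term for LHCB2.2 (0.0115), DIN4 (0.00459), FLS2 (0.0665), TAR2 (0.0598) and ARR4 (0.20), and without the 10 h libraries for AOC2 (0.00403). The cause was not tested. Rising genes were 42.2% to 55% of all calls, against 47.8%. No scaling moved the median slope by 0.1, but each scaling centres the typical gene, so this does not test the scaling. Counting error limits genes under about 1 CPM, such as PRR9 and ASN1.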
